A study of Mus musculus with 12 samples.

Results

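Chemokines, interleukins and the receptors of both were taken from the RNA-sequencing of mouse satellite cells by their symbols, as the protein-coding genes whose names begin with Ccl, Ccr, Cxcl, Cxcr, Cx3c or Il followed by a number. Of 102 symbols of that form, 4 were not protein coding and 4 were left out by name, so that 94 genes remained of the 25093 in the count table. Satellite cells, the stem cells of skeletal muscle, had been sorted from 3- to 4-month-old control mice (*Pax7*-CreERT2/+;*Gli3*+/+;*R26R*-YFP, called *Gli3*+/+ here) and from mice in which a tamoxifen-inducible Cre driven by *Pax7* deletes *Gli3* (*Pax7*-CreERT2/+;*Gli3*fl/fl;*R26R*-YFP, called *Gli3*∆/∆). Mice of both genotypes carried the Cre and the YFP reporter, received tamoxifen and were of mixed 129SV/C57BL/6 background. Quiescent satellite cells (QSCs) were sorted as α7-Integrin+ and CD34+ from uninjured hindlimb muscle, and activated satellite cells (ASCs) as α7-Integrin+ and VCAM1+ from muscle injured with cardiotoxin 3 days earlier. Both gates removed cells with CD31, CD45, SCA1 or CD11b. The paper states that such sorting partly activates the cells, and keeps the name QSCs for those freshly isolated. Each of the 4 groups had 3 libraries of polyadenylated RNA, with 2 to 3 mice combined in a QSC library and 1 mouse in an ASC library.

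Chemokines are small secreted proteins that guide the movement of leukocytes and other cells through receptors coupled to G proteins. Interleukins are cytokines that signal mostly through receptors without a kinase of their own, which hand the signal to Janus kinases and STAT proteins, or, for the IL1 and IL17 families, to NF-κB. In injured muscle, both families are known for recruiting neutrophils, monocytes and macrophages, and several interleukins also act on myogenic cells directly. Because these are bulk samples, fewer cells of a type and less RNA per cell cannot be told apart.

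Every library-by-library value comes from the 6 QSC libraries, which held 39556784 to 65750131 estimated counts each; counts are given as CPM after scaling by edgeR's TMM factors. The 14 markers of satellite cells were all detected, *Pax7* at 798 to 1157 CPM. The 14 macrophage markers summed to 11.6 to 33.6 CPM and the 10 neutrophil markers to 0.835 to 33.6 CPM. *Gli3* itself was counted at 11.2, 9.71 and 9.75 CPM in *Gli3*+/+ and at 9.54, 10.5 and 6.25 CPM in *Gli3*∆/∆ QSCs. The groups overlapped (log2 fold change −0.22, standard error 0.22). The deletion removes exon 8, and how far a count over the whole gene falls with it was not tested. The paper reports excision in QSCs by RT-qPCR, and significantly lower *Gli3* in its RNA-sequencing of *Gli3*∆/∆ ASCs. The QSC counts here do not show such a drop.

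Many of the 94 genes were low in QSCs, and a few were abundant. On the scale that compares genes, CPM per kilobase of exon, 7 members had a mean of 10 or more, 31 a mean of 1 or more and 42 a mean under 0.1. *Cxcl1* alone made up 35.3% of the level summed over all members, and *Cxcl1*, *Il17ra* and *Il11ra1* together 58.9%. 49 members had a mean of at least 20 counts per library. 35 members had no count in at least 1 library, where 0 counts allow a level of up to 0.0456 to 0.0758 CPM depending on the library (3 counts, counting error only), and 8 had fewer than 3 counts in all 6 libraries (*Ccl4*, *Ccl24*, *Ccr3*, *Cxcr3*, *Il1a*, *Il10*, *Il17b* and *Il18r1*).

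**Figure D1:**
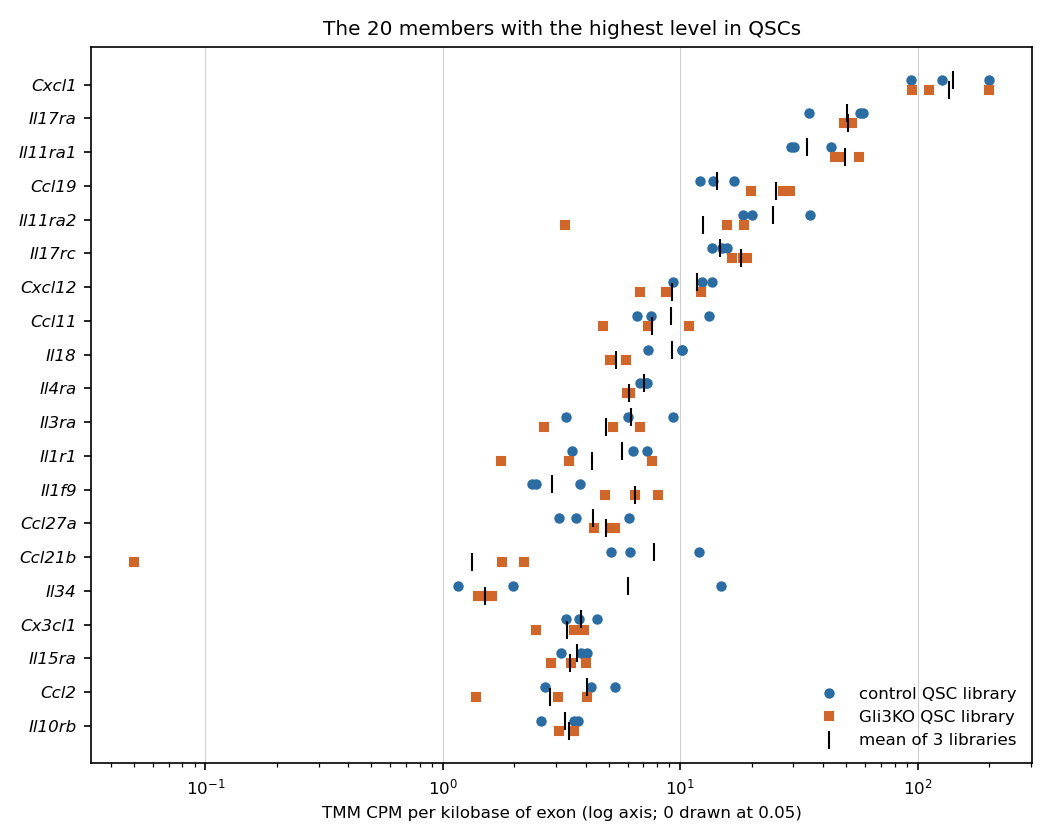
Level of the 20 members with the highest mean in QSCs, in TMM CPM per kilobase of exon on a log axis; each circle is a *Gli3*+/+ library, each square a *Gli3*∆/∆ library (Gli3KO in the key), and the bars are means of 3 libraries. *Cxcl1* stands alone above 90 CPM per kilobase in every library, and a single *Gli3*+/+ library of *Il34* and a single *Gli3*∆/∆ library of *Il11ra2* stand far from the others. So does *Gli3*∆/∆ replicate 1 of *Ccl21b*, whose value of 0 is drawn at the low value named on the axis.

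*Cxcl1*, a chemokine that attracts neutrophils through CXCR2, was the most abundant member per kilobase, at 140 ± 54.4 CPM per kilobase in *Gli3*+/+ and 136 ± 56.3 in *Gli3*∆/∆ (SD, n = 3). These are levels in sorted cells, and the part of cell isolation in them was not tested. The *Gli3*+/+ libraries held 376, 177 and 237 CPM and the *Gli3*∆/∆ libraries 178, 375 and 210 CPM. Control replicate 1 and *Gli3*∆/∆ replicate 2 were the highest by far and the groups overlapped fully (log2 fold change −0.049, standard error 0.33). The same pair of libraries had the highest sums of the 8 mural cell markers, 2451 and 2715 CPM against 1771 to 1876 in the other 4 libraries. So it was for the neutrophil markers, 33.6 and 19.8 CPM against 0.835 to 7.83. Other lists did not set this pair apart. The 19 genes of the dissociation response summed to 71157 and 52869 CPM in the pair, against 51374 to 54974 in the other 4. The part of all these genes in the *Cxcl1* level was not tested. The neighbouring genes of the same subgroup were far lower: *Cxcl2* lay at 0.630 CPM per kilobase, and *Cxcl3* and *Cxcl5*, with means of 0.833 and 4.18 counts, were at the limit of detection. Their receptor *Cxcr2* was counted at 3.18, 3.68 and 3.25 CPM in *Gli3*+/+ and at 3.51, 2.63 and 2.05 CPM in *Gli3*∆/∆ QSCs, and the groups overlapped.

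The promoters of *Cxcl1*, *Cxcl2* and *Cxcl3*, which lie in 1 cluster on chromosome 5, hold the letters of an NF-κB motif, and are shown because the 3 genes differ so widely in level. The motif searched was GGG, then 2 bases of any kind, then TTTCC, on both strands. The windows are from RefSeq (GRCm38.p6), all on the plus strand, with 1 match on that strand in capitals: chr5:90891149-90891208, chr5:90903777-90903836 and chr5:90786003-90786062.
Cxcl1: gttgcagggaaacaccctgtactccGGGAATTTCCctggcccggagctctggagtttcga
Cxcl2: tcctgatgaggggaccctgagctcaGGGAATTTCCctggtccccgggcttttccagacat
Cxcl3: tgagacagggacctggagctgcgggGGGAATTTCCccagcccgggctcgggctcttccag
The capitals begin 71 bases before the start in *Cxcl1*, 97 in *Cxcl2* and 73 in *Cxcl3*. *Cxcl2* has a second match 78 bases before the start, and *Cxcl1* one on the other strand 89 bases before it, both left in lower case. Of the members, 70 had a promoter of 250 bases before to 50 after the start, and 9 of them (12.9%) held the motif on either strand: *Ccl9*, *Ccr3*, *Cxcl1*, *Cxcl2*, *Cxcl3*, *Il16*, *Il17rc*, *Il1rn* and *Il4ra*. Of 27025 genes with such a promoter, 1.89% held it. The AP-1 motif TGANTCA was in 14 of the 70 (20.0%) and in 8.97% of all.

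Among the other chemokines counted in QSCs, *Cxcl12*, made by stromal cells of many tissues and known to retain stem cells in their niche, lay at 11.8 ± 2.24 CPM per kilobase in *Gli3*+/+ and 9.22 ± 2.73 in *Gli3*∆/∆ (SD, n = 3). Its libraries overlapped, at 101, 112 and 75.9 CPM against 55.6, 99.6 and 70.9 CPM (log2 fold change −0.35, standard error 0.23). *Ccl11*, an attractant of eosinophils, was counted at 8.12, 7.14 and 14.3 CPM in *Gli3*+/+ and at 5.10, 11.8 and 7.89 CPM in *Gli3*∆/∆, again with overlap; its receptor *Ccr3* had fewer than 3 counts in all. *Cx3cl1*, a chemokine anchored in the membrane, lay at 17.5, 13.0 and 14.7 CPM against 9.73, 15.5 and 14 CPM, and its receptor *Cx3cr1* at a mean of 3.84 counts. The monocyte attractants *Ccl2* and *Ccl7* were low, at 3.44 and 1.77 CPM per kilobase, with *Ccl2* at 4.77, 3.05 and 6.03 CPM in *Gli3*+/+ and at 4.62, 3.48 and 1.57 CPM in *Gli3*∆/∆. Their receptor *Ccr2* had a mean of 26.3 counts. None of the 7 CC chemokine receptors exceeded 0.106 CPM per kilobase, and *Ccr7*, the receptor of CCL19 and CCL21, was not analysed here.

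The receptors of IL17 and IL11 were the most abundant receptors per kilobase. *Il17ra*, the chain shared by the IL17 receptors, lay at 50.4 ± 13.4 CPM per kilobase in *Gli3*+/+ and 51.2 ± 2.03 in *Gli3*∆/∆ QSCs (SD, n = 3), with counts of 303, 510 and 497 CPM against 444, 425 and 460 CPM. All *Gli3*∆/∆ libraries fell within the range of the controls (log2 fold change 0.022, standard error 0.20). Its partner *Il17rc* was counted at 39.9, 41.9 and 36.3 CPM in *Gli3*+/+ and at 44.2, 49.2 and 51.2 CPM in *Gli3*∆/∆ QSCs, with no overlap, a difference that did not pass the test (log2 fold change 0.29, standard error 0.13, adjusted p = 0.708 from edgeR). *Il17rd*, which also restrains signalling by FGF receptors, lay at 23.0, 31.2 and 31.7 CPM against 30.1, 21.4 and 19.5 CPM, with overlap. Of the ligands, *Il17d* was counted at 3.08 to 3.53 CPM in *Gli3*+/+ and 3.40 to 6.43 CPM in *Gli3*∆/∆, and *Il17f*, *Il17c*, *Il25* and *Il17b* had means of 28.4, 7.33, 0.833 and 0.167 counts.

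Receptors of the IL4, IL1 and IL10 families followed. *Il4ra*, the chain that binds IL4 and IL13, was steady among libraries: 43.6, 40.5 and 43.0 CPM in *Gli3*+/+ against 37.0, 37.0 and 35.7 CPM in *Gli3*∆/∆ QSCs. The groups did not overlap, and the difference did not pass the test (log2 fold change −0.21, standard error 0.12, adjusted p = 0.818 from edgeR). *Il1r1*, the signalling receptor of IL1, varied more within the groups than between them, from 22.3 to 45.9 CPM in *Gli3*+/+ and from 11.2 to 48.3 CPM in *Gli3*∆/∆, and *Il3ra* did so too, from 9.80 to 27.7 and from 7.88 to 20.2 CPM. *Il1rap*, the accessory chain of several IL1-family receptors, stayed between 14.8 and 18.5 CPM in all 6 libraries. *Il15ra*, which presents IL15, lay at 12.7 to 17.9 CPM and *Il10rb*, shared by IL10-family receptors, at 9.84 to 14.1 CPM, each with overlap; 14.8% of the 31-base words of the *Il10rb* transcripts also occur in other genes, nearly all of them (14.2%) in the overlapping gene *Gm21970*.

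*Il34*, a ligand of the macrophage receptor CSF1R, had the largest relative spread (SD over mean) among the control libraries of all members with at least 20 counts on average. It was counted at 3.87, 2.27 and 29.2 CPM in *Gli3*+/+ and at 2.77, 3.15 and 2.89 CPM in *Gli3*∆/∆ QSCs. Control replicate 3 alone set the group mean: the log2 fold change was −2.0 (standard error 0.81) with it and −0.059 (standard error 0.31) without it. That library also had the highest sum of the 10 fibro-adipogenic markers, 4525 CPM against 2520 to 4190 in the other 5. Its sum of the 14 satellite cell markers was the highest too, 10623 CPM against 8671 to 9022. Of that list it had the highest *Sdc4*, 2714 CPM against 891 to 1401. These lists were picked after the values had been seen, and whether they go together with *Il34* was not tested. *Ccl21a* and *Ccl9* came next in spread, *Ccl21a* at 0.472, 0.504 and 1.81 CPM and *Ccl9* at 1.56, 0.252 and 0.719 CPM in *Gli3*+/+.

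To ask whether loss of *Gli3* altered these genes in quiescence, the 3 *Gli3*∆/∆ QSC libraries were compared with the 3 *Gli3*+/+ libraries over all genes. A gene was called where it differed by 1.2-fold or more and its Benjamini-Hochberg adjusted p was below 0.05. Of the 94 members, 0 were called with edgeR's quasi-likelihood test, where 88 of 25093 genes, 0.351%, were (0.187% higher and 0.163% lower in *Gli3*∆/∆); the smallest adjusted p of a member was 0.202. At an unadjusted p under 0.05 edgeR had 10 members, 4 higher and 6 lower in *Gli3*∆/∆, which is 10.6% of the members beside 7.11% of all genes. DESeq2 called 3 of the 75 members to which it gave an adjusted p, beside 1.64% of all genes (384): *Il1f9* and *Ccl19* were higher and *Il18* lower in *Gli3*∆/∆. On simulated libraries of the same depth, 200 of 25093 genes were changed, all with a mean of at least 20 counts. Of these changes edgeR recovered 84% of the 4-fold and 25% of the 2-fold ones, and DESeq2 91% and 51%. Most 2-fold differences of single genes were thus missed by edgeR.

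Among the 49 members with a mean of at least 20 counts, the *Gli3*∆/∆ mean was below the *Gli3*+/+ mean for 34 (69.4%, beside 53.7% of all genes at that count) and the median log2 fold change was −0.26, beside −0.022 over those genes. The groups did not overlap for 10 of the 49 (20.4%, beside 14.1% of genes at that count), 5 higher and 5 lower, where 7.35% and 6.77% of genes were. *Il1f9*, *Il15*, *Ccl19*, *Il11ra1* and *Il17rc* lay above the controls in all 3 *Gli3*∆/∆ libraries, and *Ccl21b*, *Il18*, *Cxcl16*, *Ccl25* and *Il4ra* below. By role, all 4 measured inflammatory CC chemokines, all 4 homeostatic CXC and CX3C chemokines and both neutrophil-attracting CXC chemokines had log2 fold changes below 0. Their medians were −0.38, −0.29 and −0.17, and none was called by either tool. Several of these estimates were smaller than their standard errors, as for *Cxcl1* and for *Ccl7* (−0.18, standard error 0.56). Not all roles went this way. Above 0 were 3 of 5 measured receptors and 2 of 3 ligands of the IL10, IL12 and IL17 families. The same held for 2 of 3 IL1 family ligands, but only for 1 of 5 receptors of the common gamma chain, IL4 and IL13.

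**Figure D2:**
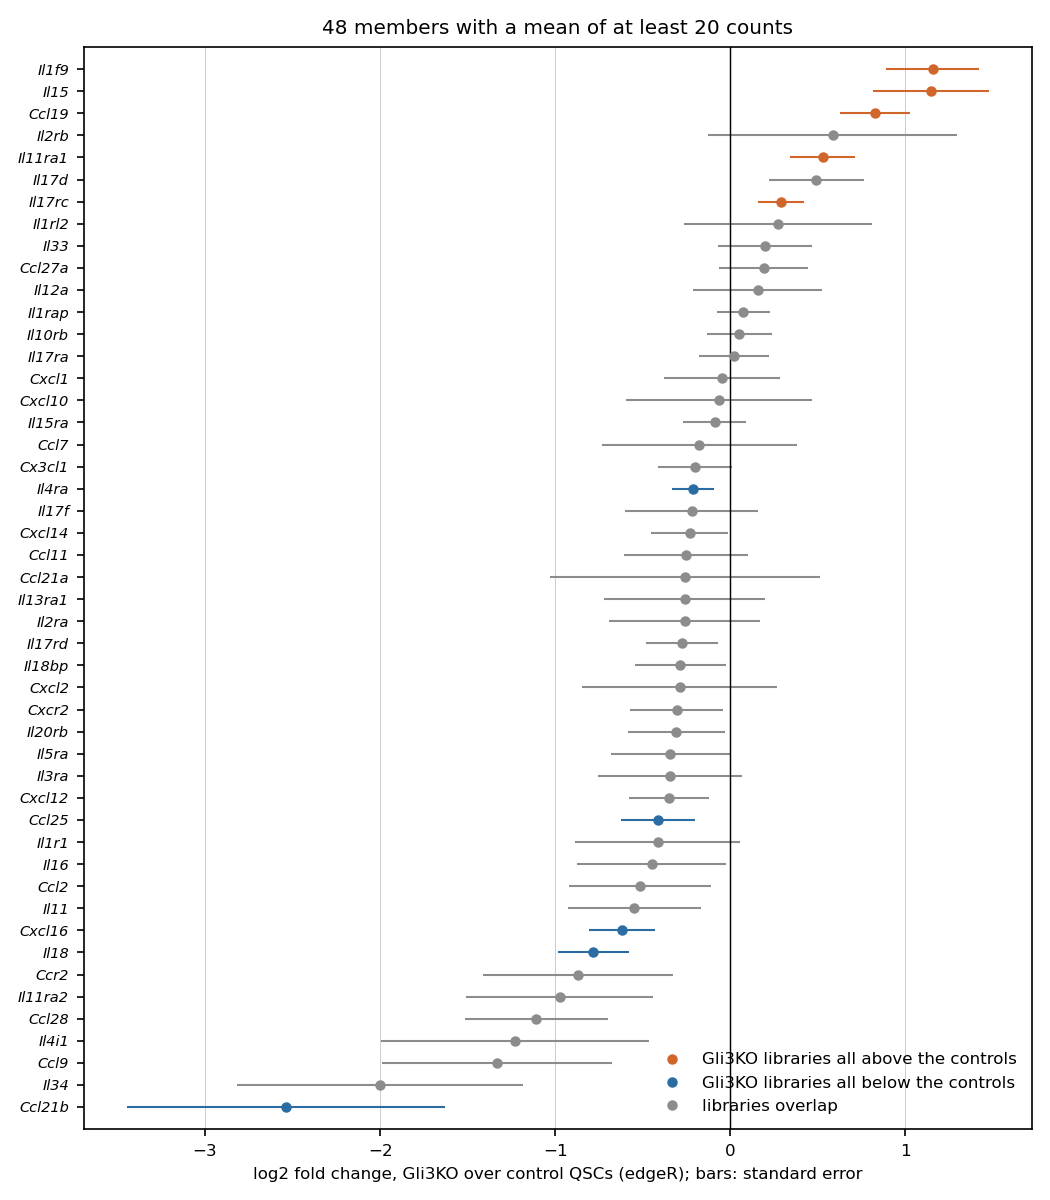
Log2 fold change of *Gli3*∆/∆ (Gli3KO on the axis) over *Gli3*+/+ QSCs for 48 of the 49 members with a mean of at least 20 counts; points are edgeR estimates, bars their standard errors, and the colour marks members whose 3 *Gli3*∆/∆ libraries all lie above or all below the 3 controls. 34 of the 48 points lie below 0, and the estimates run from −2.54 for *Ccl21b* to 1.16 for *Il1f9*.

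The IL1 family held members that differed in opposite directions. *Il1f9*, the gene of the epithelial cytokine IL36γ, was counted at 3.9, 6.25 and 4.06 CPM in *Gli3*+/+ and at 10.6, 7.92 and 13.3 CPM in *Gli3*∆/∆ QSCs. All *Gli3*∆/∆ libraries lay above the controls (log2 fold change 1.16, standard error 0.27, adjusted p = 0.202 from edgeR and 0.00513 from DESeq2). Of the chains of its receptor, *Il1rl2* lay at 0.496 to 1.69 CPM and *Il1rap* is given above. *Il18*, an inflammasome-processed cytokine, was counted at 10.5, 10.5 and 7.54 CPM in *Gli3*+/+ and at 5.29, 5.24 and 6.08 CPM in *Gli3*∆/∆ QSCs. Here all *Gli3*∆/∆ libraries lay below (log2 fold change −0.78, standard error 0.20, adjusted p = 0.283 from edgeR and 0.0331 from DESeq2). Its decoy *Il18bp* lay at 4.54, 5.75 and 7.73 CPM against 6.13, 4.27 and 4.41 CPM with overlap, and its receptor chains *Il18r1* and *Il18rap* had means of 0.333 and 8.17 counts. *Il33*, an alarmin of the same family, lay at 4.35, 7.53 and 4.64 CPM against 6.28, 5.13 and 7.61 CPM, with overlap.

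*Il15*, a cytokine of the common gamma chain known to be made by muscle, was counted at 1.27, 1.76 and 0.789 CPM in *Gli3*+/+ and at 3.05, 2.64 and 2.83 CPM in *Gli3*∆/∆ QSCs. The groups were apart, and the difference passed neither test (log2 fold change 1.15, standard error 0.33, adjusted p = 0.388 from edgeR and 0.0738 from DESeq2). Of its receptor, *Il15ra* is given above, *Il2rb* had a mean of 21.5 and *Il2rg* of 12.2 counts. *Cxcl16*, a chemokine anchored in the membrane, was counted at 11.7, 9.22 and 11.2 CPM in *Gli3*+/+ and at 5.95, 7.48 and 7.51 CPM in *Gli3*∆/∆ QSCs, all below the controls (log2 fold change −0.62, standard error 0.19, adjusted p = 0.425 from edgeR). 18.3% of its exon bases overlap *Zmynd15* on the other strand; the kit kept the strand, and whether the counting used it is not given in the sources used here. *Ccl25*, the ligand of CCR9 in thymus and gut, was lower in all *Gli3*∆/∆ libraries too, at 4.59, 4.70 and 4.36 CPM against 3.47, 3.82 and 2.95 CPM (log2 fold change −0.41, standard error 0.21, adjusted p = 0.772 from edgeR), and *Ccr9* had a mean of 9.51 counts.

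**Figure D3:**
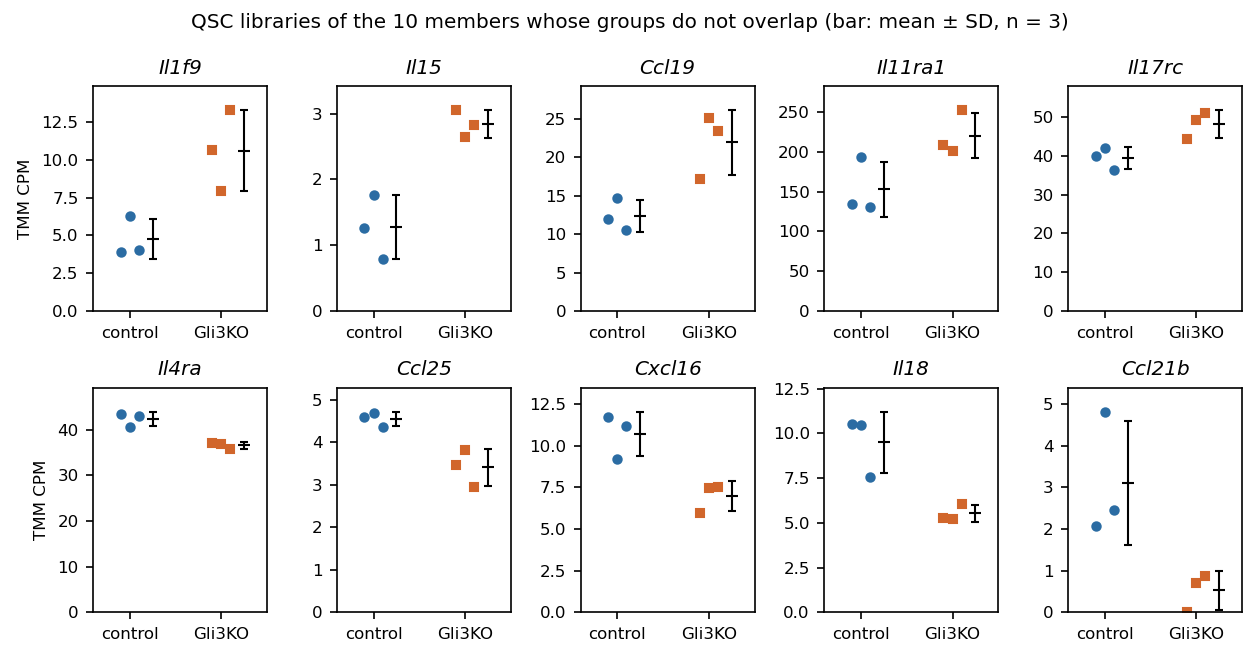
TMM CPM in each QSC library for the 10 members with a mean of at least 20 counts whose groups do not overlap; circles are *Gli3*+/+ and squares *Gli3*∆/∆ libraries (Gli3KO on the axis), with the mean ± SD of 3 libraries beside them, and each axis starts at 0. The *Gli3*∆/∆ libraries lie above the controls in the upper row and below them in the lower row.

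Markers of other cell types were read beside these values, and most sums overlapped between the groups. All 3 *Gli3*∆/∆ libraries had lower sums of the platelet markers, 2.85 to 4.05 CPM against 5.13 to 10.4 CPM, while the Schwann cell markers (373 to 471 against 461 to 505 CPM), the endothelial markers (178 to 206 against 205 to 299 CPM) and the 19 genes of the dissociation response (51374 to 54974 against 53460 to 71157 CPM) overlapped with lower means. edgeR called 0 genes of these 4 lists, and DESeq2 called 2 of the 8 Schwann cell markers, both lower, and none of the other 3 lists. With edgeR, 2 of 4 platelet, 4 of 8 Schwann cell, 1 of 11 endothelial and 2 of 19 dissociation response genes had an unadjusted p under 0.05. Of all genes, 7.11% did. Of the mural markers 4 of 8 had such a p, and of the fibro-adipogenic markers 1 of 10. edgeR called none of them, and DESeq2 called *Abcc9* of the first list and *Pi16* of the second, both lower. In all, 3 mural markers were higher and 5 lower, and 4 fibro-adipogenic markers were higher and 6 lower. The mural sums overlapped, at 1796 to 2715 CPM in *Gli3*∆/∆ against 1771 to 2451 CPM. So did the fibro-adipogenic sums, at 3939 to 4190 CPM against 2520 to 4525 CPM. The part of all these markers in the members' differences was not tested.

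The largest genotype difference in the group came from a duplicated stretch of chromosome 4. *Il11ra1*, *Il11ra2*, *Ccl19*, *Ccl21a*, *Ccl21b* and *Ccl27a* lie there with near-identical copies and pseudogenes, and salmon divides reads that fit several copies among them. All 31-base words of the *Il11ra2* and *Ccl21b* transcripts occur in other genes, as do 80.6% of those of *Ccl21a*, 58.8% of *Ccl19*, 57.7% of *Il11ra1* and 57.0% of *Ccl27a*, so the split between copies is uncertain. The coding sequences of *Il11ra1* and *Il11ra2* differ at 13 of 1296 bases (99.0% identity) and those of *Ccl21a* and *Ccl21b* at 2 of 399 (99.5% identity). A 60-base stretch of each pair is shown to make plain how little tells the copies apart, with the bases that differ within the pair in capitals. The windows come from the coding sequences of GENCODE vM21 (GRCm38), each spanning an intron: chr4:41768024-41768180 on the plus strand, chr4:42657303-42657459 on the minus strand, chr4:42773718-42773865 on the minus strand and chr4:42255820-42255967 on the plus strand.
Il11ra1: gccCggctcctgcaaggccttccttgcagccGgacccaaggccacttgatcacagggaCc
Il11ra2: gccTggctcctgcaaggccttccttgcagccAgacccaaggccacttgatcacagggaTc
Ccl21a: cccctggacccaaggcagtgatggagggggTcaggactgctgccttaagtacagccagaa
Ccl21b: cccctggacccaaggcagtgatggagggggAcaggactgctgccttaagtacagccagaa

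CCL21, made by lymphatic endothelium and lymphoid stroma, guides lymphocytes and dendritic cells through CCR7. *Ccl21b* was counted at 2.06, 4.82 and 2.46 CPM in *Gli3*+/+ and at 0, 0.716 and 0.885 CPM in *Gli3*∆/∆ QSCs, and *Ccl21a* at 0.472, 0.504 and 1.81 CPM in *Gli3*+/+ and 0.496, 0.224 and 1.61 CPM in *Gli3*∆/∆, with overlap. The copy *Gm21541* took the largest share of the family's reads in each library but *Gli3*∆/∆ replicate 3, where *Ccl21a* did. *Gm21541* was counted at 8.62, 20.2 and 11.4 CPM in *Gli3*+/+ and 2.02, 2.70 and 1.46 CPM in *Gli3*∆/∆, and, though no member by its symbol, was itself called by edgeR (log2 fold change −2.70, standard error 0.36, adjusted p = 0.0177). With *Ccl21a*, *Ccl21b*, *Gm21541* and *Gm13304* summed, the family lay at 11.1, 25.5 and 15.7 CPM in *Gli3*+/+ and at 2.52, 3.64 and 3.95 CPM in *Gli3*∆/∆ QSCs. The *Gli3*∆/∆ libraries were all below the controls, and the mean of the controls was 5.18-fold higher (log2 fold change −2.37, standard error 0.32, adjusted p = 0.0181 from edgeR and 1.49e-10 from DESeq2). The sum no longer passed edgeR's test when a *Gli3*∆/∆ library was left out, at adjusted p = 0.085 without replicate 1, 0.0689 without replicate 2 and 0.107 without replicate 3. With the copies of all 4 families summed, edgeR called 0.351% and DESeq2 1.63% of all genes. Summing was chosen after the values had been seen.

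CCL19 shares the receptor CCR7 and differed in the other direction. *Ccl19* was counted at 11.9, 14.7 and 10.5 CPM in *Gli3*+/+ and at 17.2, 25.2 and 23.5 CPM in *Gli3*∆/∆ QSCs, all *Gli3*∆/∆ libraries above the controls (log2 fold change 0.83, standard error 0.20, adjusted p = 0.232 from edgeR and 0.0167 from DESeq2). Summed with its 4 pseudogenes, the family lay at 40.0, 52.5 and 36.7 CPM against 56.3, 68.7 and 76.5 CPM, still without overlap (log2 fold change 0.64, standard error 0.18, adjusted p = 0.364 from edgeR and 0.092 from DESeq2), so the call by DESeq2 was lost on summing. The pseudogenes differed among themselves: *Ccl19-ps3* lay higher in all *Gli3*∆/∆ libraries (log2 fold change 1.33, standard error 0.29) and *Gm12407* lower in all (log2 fold change −1.75, standard error 0.48).

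*Il11ra1*, the receptor chain of IL11, was counted at 135, 193 and 131 CPM in *Gli3*+/+ and at 208, 201 and 252 CPM in *Gli3*∆/∆ QSCs, without overlap (log2 fold change 0.53, standard error 0.18, adjusted p = 0.535 from edgeR). Its copies had log2 fold changes below 0: *Gm13305* lay at 37.7, 70.6 and 58.9 CPM against 19, 7.39 and 14.4 CPM, and *Il11ra2* at 23.9, 45.8 and 26.0 CPM against 20.5, 4.25 and 24.1 CPM. Summed, the 3 genes overlapped between the groups, at 196, 309 and 216 CPM against 248, 212 and 291 CPM (log2 fold change 0.058, standard error 0.20), so the separation of *Il11ra1* was not seen in the family as a whole. The ligand *Il11* was low, at 0.551 to 1.42 CPM. *Ccl27a*, a skin chemokine that binds CCR10, gave a log2 fold change of 0.19 alone and −0.26 when summed with *Gm13306* and *Gm20878* (standard errors 0.26 and 0.19), with overlap in both; *Ccl28*, which shares that receptor and lies on another chromosome, was at 1.42, 3.39 and 2.30 CPM against 0.744, 1.55 and 1.00 CPM.

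**Figure D4:**
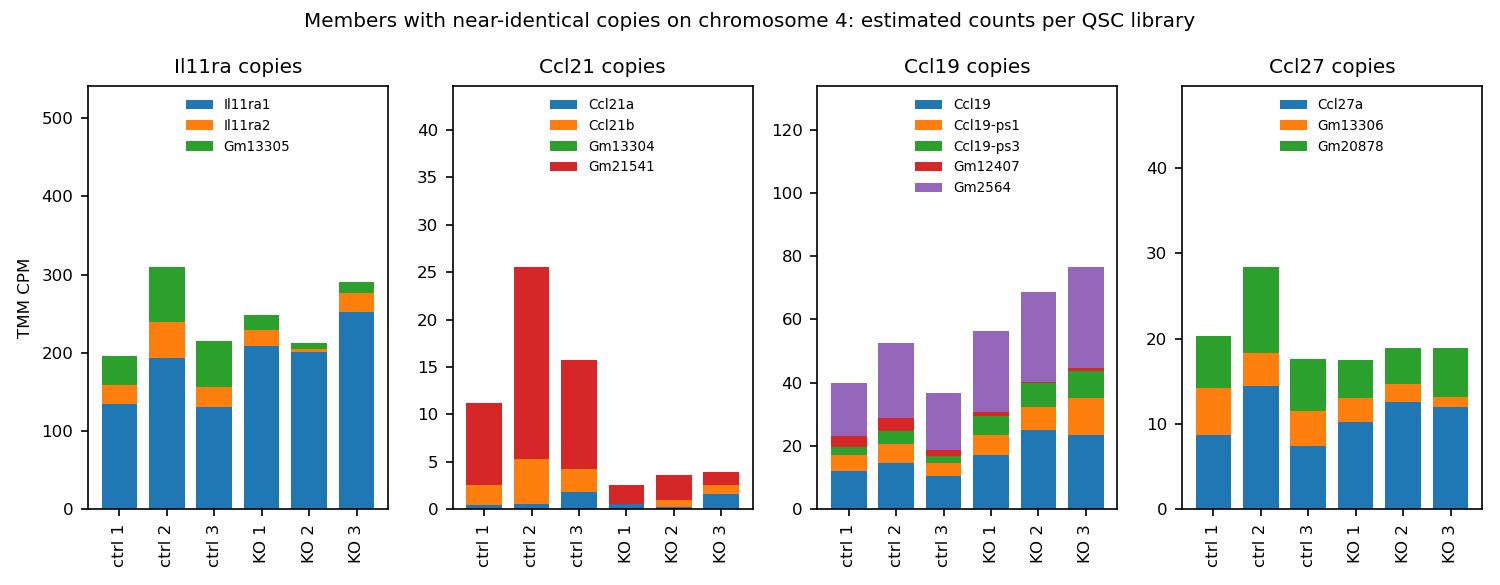
TMM CPM assigned to each copy in the 6 QSC libraries, stacked per library (ctrl, *Gli3*+/+; KO, *Gli3*∆/∆), for the 4 families of members with near-identical copies on chromosome 4. The stacked *Ccl21* bars reach 11.1 to 25.5 CPM in the controls and 2.52 to 3.95 CPM in *Gli3*∆/∆, the *Ccl19* bars are higher in *Gli3*∆/∆, and the *Il11ra* and *Ccl27* bars overlap.

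The copies lie between 41699989 and 42773993 of chromosome 4 (GRCm38), and differences between the genotypes were frequent over that whole stretch. Of the 38 genes there with a mean of at least 20 counts, edgeR called 5 (13.2%, beside 0.351% of all genes tested), and 21 in all did not overlap between the groups, 7 higher and 14 lower in *Gli3*∆/∆ (55.3%, beside 14.1%). 4 of the 5 called genes were neither members nor copies of one. The stretch was delimited after the values had been seen, and the copy number carried by the mice, which are of mixed background, was not tested.

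Genes that relay the signals of these receptors were read from lists of non-members. Of 24 genes of the JAK-STAT relay, edgeR and DESeq2 called 0, 2 had an unadjusted p under 0.05 with edgeR, and 15 had a log2 fold change below 0. The sum of the list was nonetheless lower in every *Gli3*∆/∆ library, at 3285 to 3375 CPM against 3691 to 4044 CPM in *Gli3*+/+. Most of the sum came from *Socs3*, a feedback inhibitor of cytokine receptors (log2 fold change −0.29, standard error 0.12, adjusted p = 0.674 from edgeR). *Socs3* was counted at 2417, 2432 and 2310 CPM in *Gli3*+/+ and at 1868, 2016 and 1989 CPM in *Gli3*∆/∆. It is also among the 19 genes of the dissociation response, of which 18 had log2 fold changes below 0. *Socs4* lay lower in all *Gli3*∆/∆ libraries as well (log2 fold change −0.28, standard error 0.12). Of 35 genes of the NF-κB and Toll/IL1 relay, edgeR called 0 and DESeq2 1, 2 had an unadjusted p under 0.05 with edgeR, and 27 were below 0. The one called was *Tlr3*, a sensor of double-stranded RNA, at 7.08, 7.50 and 4.64 CPM against 11.6, 11.4 and 11.5 CPM (log2 fold change 0.84, standard error 0.21, adjusted p = 0.267 from edgeR and 0.0224 from DESeq2). Of 21 genes of the chemokine receptor relay and 13 atypical receptors and related chemokines, neither tool called any; 3 and 2 of them had an unadjusted p under 0.05 with edgeR.

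The second question, how these genes stand in activated cells, was taken up only in part. No ASC library could be matched to a column of counts, and the authors' own fold changes for ASCs were not used. The single ASC value used here is therefore the authors' mean normalized count over all 12 libraries, both states and genotypes pooled. It is set here against the mean of the 6 QSC libraries, brought to the same scale so that the median gene has a ratio of 1. A gene equal in both states gives a ratio of 1, a gene absent from ASCs one of 0.5, and a ratio above 1 means a higher mean in ASCs. The values have no SD and no n, were normalized separately, and were not tested.

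By this measure the most abundant members of QSCs per kilobase, from *Cxcl1* down to *Il18*, had ratios below 1. *Il17ra* had a ratio of 0.533 (QSC mean 20533, authors' mean 10948), *Ccl19* one of 0.542 and *Il11ra1* one of 0.565, near the lower bound, and *Cxcl1* one of 0.674, farther from it. *Il17rc* (0.784), *Cxcl12* (0.862) and *Il1f9* (0.861) lay between the bounds, and *Cx3cl1* (1.08) and *Cxcr2* (1.07) near 1. Of the abundant receptors, *Il4ra* (1.66), *Il10rb* (1.83) and *Il1r1* (2.20) had ratios above 1.

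A second set of members stood far above 1. Of the 49 members with a mean of at least 20 QSC counts, 14 (28.6%) had a ratio above 2, beside 12.1% of genes at that count, with a median over the 49 of 1.07. *Ccl9* reached 84.4 (QSC mean 27.4, authors' mean 2315), *Ccr2* 37.0 (23.9 and 883), *Cxcl2* 25.8 (60.9 and 1571) and *Il13ra1* 11.8. *Il33* reached 6.52, *Ccl7* 5.92, *Ccl2* 4.01 and *Il34* 3.04. Of the 45 members with fewer QSC counts, 12 (26.7%) had an authors' mean of at least 100, beside 3.92% of genes at that count: *Il18rap* (1127), *Ccl6* (1110), *Il1b* (746), *Cx3cr1* (425), *Il1rn* (378), *Il10ra* (355), *Il2rg* (354), *Ccr1* (290), *Il7r* (242), *Ccl3* (156), *Ccl4* (102) and *Il1rl1* (101). Many of these are known from myeloid cells. The 14 macrophage markers went with them: all had a ratio above 2, with a median of 70.5 and a summed mean of 36611 against 831 in QSCs, although the gate removed cells with CD45 and CD11b. The neutrophil markers summed to 1684 against 587 on the same scale, and the satellite cell markers were at 293396 against 429507. The part of these cells in the members' ASC level was not tested.

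**Figure D5:**
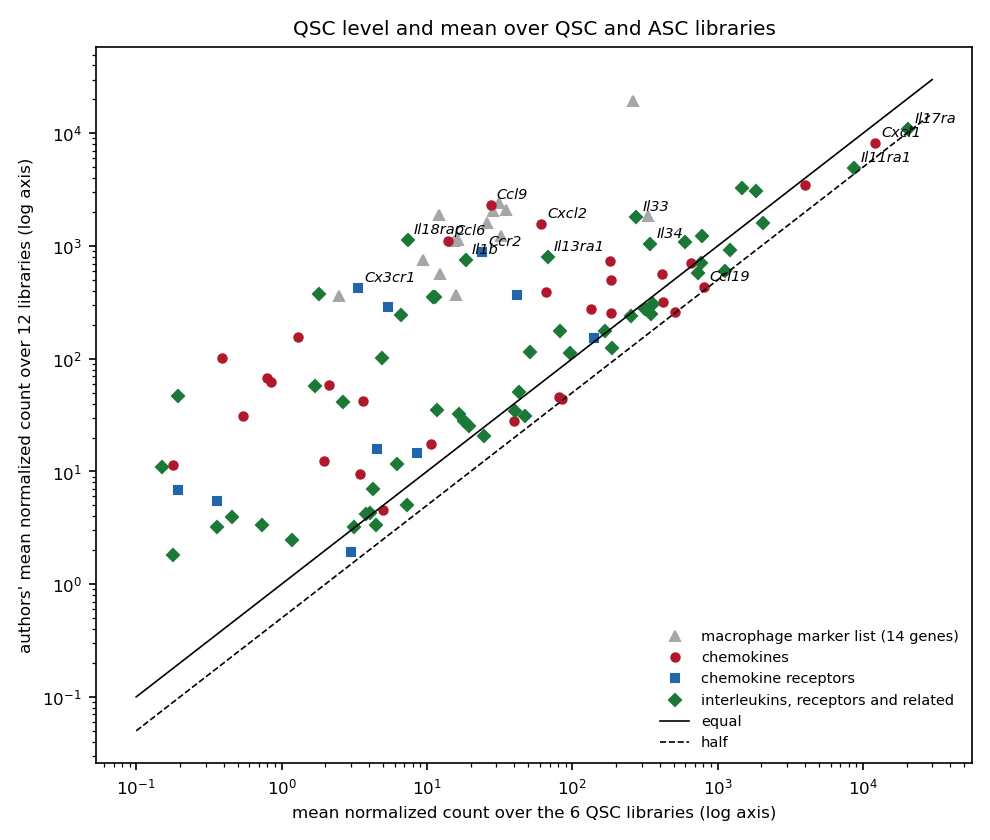
Mean normalized count over the 6 QSC libraries (x) and the authors' mean over all 12 libraries (y), both on log axes and on 1 scale, for the 94 members by kind and for the 14 macrophage markers (triangles); the solid line marks equal means and the dashed line the lower bound for a gene absent from ASCs. *Il17ra* and *Il11ra1* lie near the dashed line, *Cxcl1* between the lines, and *Ccl9*, *Ccl6*, *Il18rap* and *Ccr2* lie among the macrophage markers.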

How the data were processed

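The 12 libraries were made from 20 ng of total RNA with a polyA kit that keeps the strand. The authors assigned reads to transcripts of GRCm38 (GENCODE vM19) with salmon, summed them to genes with tximport, and deposited the estimated counts, not normalized, for genes with 5 or more reads in 2 or more samples. The fold changes and p-values in 4 further tables, which hold the DESeq2 comparisons made by the authors, were not used; the mean signal per gene in these tables, deposited by the authors as the mean over 12 libraries of counts divided by size factors, was. The 6 QSC columns carry sample titles. 6 other columns of the count table match no label and were not used, and for 2 ASC samples the title goes against the other labels.

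The counts, rounded to whole numbers, went into edgeR 4.0.16 in R 4.3.3 (TMM, quasi-likelihood test, Benjamini-Hochberg adjustment over all 25093 genes, no further filter) on the 6 QSC libraries. P-values measure the spread between libraries of pooled mice. Alternatives were voom in limma 3.58.1 with weights for library quality, DESeq2 1.42.0, median-of-ratios size factors, filterByExpr, no minimum fold, the replicate number as a block and leaving out each library; summing copies (genes holding at least 10% of a member's 31-base words) and the uncentred ratio were added after seeing the data. Levels of different genes were compared as CPM per kilobase of merged exons of GENCODE vM21, in which 92 of the 94 members keep their identifier version. On simulated counts with 200 changed genes, edgeR recovered 54.5% and called 18 unchanged genes, DESeq2 71% and 53, and limma-voom 43.5% and 4.

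The members and all gene lists were chosen with earlier results of these data known. Named are members called, the 20 highest per kilobase, the 8 largest differences without overlap at a mean of at least 20 counts, receptors of these ligands, members of duplicated loci, the 3 with the largest spread in controls, and of each list of non-members those called or the 2 with the smallest p; others named were picked after their values were seen. 46 further symbols of the lists by role were not analysed here, and some receptors are not reported here.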

Additional observations from a re-analysis of the deposited data

How the results depend on the processing

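edgeR called 0 members under each alternative but the summing of copies. limma-voom called 0 members too, and was run only on all 6 libraries with no other change. edgeR called 58 to 103 genes when a library was left out (58 without *Gli3*∆/∆ replicate 3, 88 with all libraries). DESeq2 called 3 members and 384 genes. With copies summed, edgeR called 1 member family (*Ccl21*). DESeq2 called 3 members or families, of which *Ccl21* was the only summed family. Of 169 recomputed fold changes of members and summed families, 153 kept direction and side of the threshold, 7 gained a call, 3 lost one and 6 turned. A summed fit was counted under each member of its family, so these are not all separate fits. Among the gained calls, the *Ccl21* sum stands under both *Ccl21a* and *Ccl21b*. The 3 lost were the *Ccl21* sum without each *Gli3*∆/∆ library. On summing copies, *Il11ra2* turned to 0.058 (edgeR) and 0.065 (DESeq2) and *Ccl27a* to −0.26 with either tool. *Ccl21a* turned from −0.26 to 0.66 without control replicate 3 and to 0.19 without *Gli3*∆/∆ replicate 2. It ran from −1.37 to 0.66 over the libraries left out. With the replicate number as a block, edgeR called 0 members and 79 genes; same-numbered libraries did not deviate together (r = −0.21, −0.020 and −0.038 over 17389 genes), none correlated best with its own number, and the block changed no call of a member. Uncentred, 10 members in place of 14 had a ratio above 2, and 17 of the 20 highest members per kilobase were among the 20 highest in CPM. The fit of all 12 libraries was not run, because the ASC columns match no label. With 3 libraries a group, edgeR recovered 25% and DESeq2 51% of simulated 2-fold changes in genes with a mean of at least 20 counts. For the 45 members with a mean under 20 counts the depth allows no statement on a difference.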
